A study of Homo sapiens with 9 samples.

Results

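The genes described here are 32 genes of cholesterol and fatty acid synthesis, with their regulators, in ES-2, a human ovarian cancer cell line. They were chosen by name, as genes controlled by or controlling the sterol regulatory element-binding proteins (SREBPs), and all 32 were found by symbol among the 32997 genes of the deposited table. RNA was sequenced from 9 libraries. The genotypes were empty vector (3 libraries), overexpression of OTUB2, which encodes a deubiquitinating enzyme (3 libraries), and overexpression of SNX29P2 (3 libraries), a pseudogene of the sorting nexin gene SNX29. All cells grew in RPMI-1640 with fetal bovine serum and received no treatment, and the labels name no further allele or agent in any group. The promoter of the constructs, and whether each group was a clone or a pool, was not given in the sources used here. No label states separate cultures for the 3 libraries of a group. The p-values therefore cover the spread between these libraries alone, and that spread may be technical.

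Cells make cholesterol and fatty acids from acetyl-CoA. One branch runs through mevalonate and isoprenoids to squalene and then to sterols, and the other builds saturated fatty acids that are elongated and desaturated. The membrane-bound factors SREBF1 and SREBF2 are carried from the endoplasmic reticulum to the Golgi by SCAP and cut there, and the released part enters the nucleus and activates most enzymes of both branches. When sterols are plentiful, INSIG proteins hold SCAP back, so that INSIG1, itself a target, closes a feedback loop. SREBPs act together with NF-Y, a factor that binds the sequence CCAAT, in many target promoters.

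The start-site windows of the genes were searched first, because both factors bind near the start of transcription. RefSeq windows of 250 bases before to 50 bases after a start site (GRCh38.p14) were held for 28 of the 32 genes, in 38 windows. The core of the sterol regulatory element, TCACNCCAC, and the NF-Y motif CCAAT were searched on both strands. CCAAT was present in 26 of the 38 windows (68.4%), against 34.6% of all 35116 windows, and in at least 1 window of 22 of the 28 genes (78.6%), against 39.7% of all 27305 genes in the RefSeq table. It was present 2 or more times in a window of 15 of the 28 genes, against 12.9% of all genes. No restriction to protein-coding or expressed genes was applied to these backgrounds, while all 32 genes are annotated as protein-coding. Of 55 matches in the windows, 42 were centred 50 to 200 bases upstream of the start site. The share in that stretch was not counted over all windows. Sites in overlapping windows of the same gene, as in ACLY and SC5D, are counted once for each window. The sterol element core was present in 1 of the 38 windows (2.63%), that of SREBF2, against 1.13% of all windows. A match is a description of the letters, and a window without one says nothing about binding. The stretches below end before the first exon base of the deposited annotation. SREBF2 is shown because it holds both motifs, without overlap between them, and the other 4 are shown because they are the genes that stood highest in vector replicate 1 relative to every other library, as described further on. Capitals mark CCAAT, which reads ATTGG where it lies on the other strand, and in SREBF2 also the sterol element core.
SREBF2, chr22:41832855-41833078, plus strand: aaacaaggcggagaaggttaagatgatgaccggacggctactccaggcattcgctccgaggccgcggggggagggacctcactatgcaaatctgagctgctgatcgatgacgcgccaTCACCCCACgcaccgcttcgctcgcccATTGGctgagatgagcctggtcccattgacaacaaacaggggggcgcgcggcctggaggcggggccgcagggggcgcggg
INSIG1, chr7:155297628-155297775, plus strand: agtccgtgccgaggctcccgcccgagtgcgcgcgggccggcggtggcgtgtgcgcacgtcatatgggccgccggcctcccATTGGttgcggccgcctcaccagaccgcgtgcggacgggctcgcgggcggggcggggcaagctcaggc
STARD4, chr5:111512591-111512785, minus strand: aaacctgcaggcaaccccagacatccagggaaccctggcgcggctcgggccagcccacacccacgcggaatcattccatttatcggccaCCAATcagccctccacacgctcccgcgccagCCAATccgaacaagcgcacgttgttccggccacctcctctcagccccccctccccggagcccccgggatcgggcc
SCD, chr10:100346983-100347123, plus strand: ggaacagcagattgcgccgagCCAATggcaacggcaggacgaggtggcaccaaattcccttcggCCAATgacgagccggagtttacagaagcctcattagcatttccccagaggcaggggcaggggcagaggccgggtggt
MSMO1, chr4:165327419-165327622, plus strand: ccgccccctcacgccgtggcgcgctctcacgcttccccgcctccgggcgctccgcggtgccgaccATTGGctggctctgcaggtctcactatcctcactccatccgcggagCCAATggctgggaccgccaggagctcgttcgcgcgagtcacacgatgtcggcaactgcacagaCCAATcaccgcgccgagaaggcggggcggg

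The libraries held 38504854 to 48551215 reads in genes. OTUB2 was at 37.6 to 42.6 RPKM (reads per kilobase of the gene per 1000000 reads in genes) in its own group and at 1.04 to 1.58 in the other 6 libraries. SNX29P2 was at 41.0 to 55.1 RPKM in its own group and at most 0.0665 elsewhere. VIM was at 975 to 1145 RPKM, KRT18 at 100.6 to 146.7 and KRT8 at 25.7 to 36.5. CDH2 was at 15.5 to 17.8 RPKM and WT1 at 0.524 to 1.37. EPCAM and PAX8 were at or below 0.421 RPKM. Markers of adipocytes (2 of 4 matched) and hepatocytes (3 of 3), cell types known for lipid synthesis, summed to at most 0.153 and 0.0430 RPKM in any library. Of the endothelial markers PECAM1 and VWF were at most 0.125 RPKM while CDH5 was at 17.6 to 23.6, and of the fibroblast markers (2 of 4 matched) COL1A1 was at 45.5 to 86.0 and COL3A1 at most 0.00686. Leukocyte markers (4 of 4 matched) summed to 5.15 RPKM in OTUB2 replicate 1, mostly LYZ, and to 0.0734 to 0.244 in the other 8 libraries. PTPRC and CD3E were at 0 in all of the other 8 except for 2 reads of PTPRC in SNX29P2 replicate 3. The part of these reads in the results was not tested.

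In these cells DHCR7 and several fatty acid enzymes stood highest, and most of the mevalonate and sterol enzymes were moderate. DHCR7, which reduces 7-dehydrocholesterol to cholesterol, averaged 94.7 RPKM over the 9 libraries. It was followed by FASN, the fatty acid synthase, at 74.1, by ACLY, which splits citrate to cytosolic acetyl-CoA, at 66.0, by the elongase ELOVL5 at 58.6 and by the stearoyl-CoA desaturase SCD at 48.7 RPKM. The mevalonate enzymes ranged from 2.51 RPKM for MVK, the mevalonate kinase, to 26.3 for FDPS, which makes farnesyl diphosphate. TM7SF2, a sterol reductase, was lowest at 0.437 RPKM, resting on 29 to 105 reads a library. HSD17B7, a sterol ketone reductase, rested on 145 to 325 reads and STARD4, a cytosolic sterol carrier, on 160 to 1161, and the other 29 genes had at least 453 reads in every library.

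Vector replicate 1 was the highest library for most of these genes, in many of them by a small margin. Over the 32 genes, the median ratio of vector replicate 1 to the highest of the other 8 libraries was 1.16. The other 8 libraries themselves spanned a median ratio of 1.26 from lowest to highest. Of the 32 genes, 27 had their highest value of the 9 libraries in vector replicate 1, against 18.8% of the 16533 genes tested. Of the other 5, ELOVL5, the elongase ELOVL6 and HSD17B7 were highest in SNX29P2 replicate 3, PMVK in OTUB2 replicate 1 and SCAP in vector replicate 3. Relative to each gene's own median over the libraries, the median of the 32 genes on the log2(RPKM + 0.1) scale was 0.44 in vector replicate 1 and -0.09 to 0.03 in the other 8 libraries. By role, the median in vector replicate 1 was 0.35 for the mevalonate steps, 0.50 for the sterol branch, 0.90 for the regulators and STARD4, and 0.26 for fatty acid genes. All 16533 genes tested had a median of 0.00 in that library. Its depth, 42676684 reads, and its 25091 genes above 0 lay within the range of the other libraries.

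**Figure D1:**
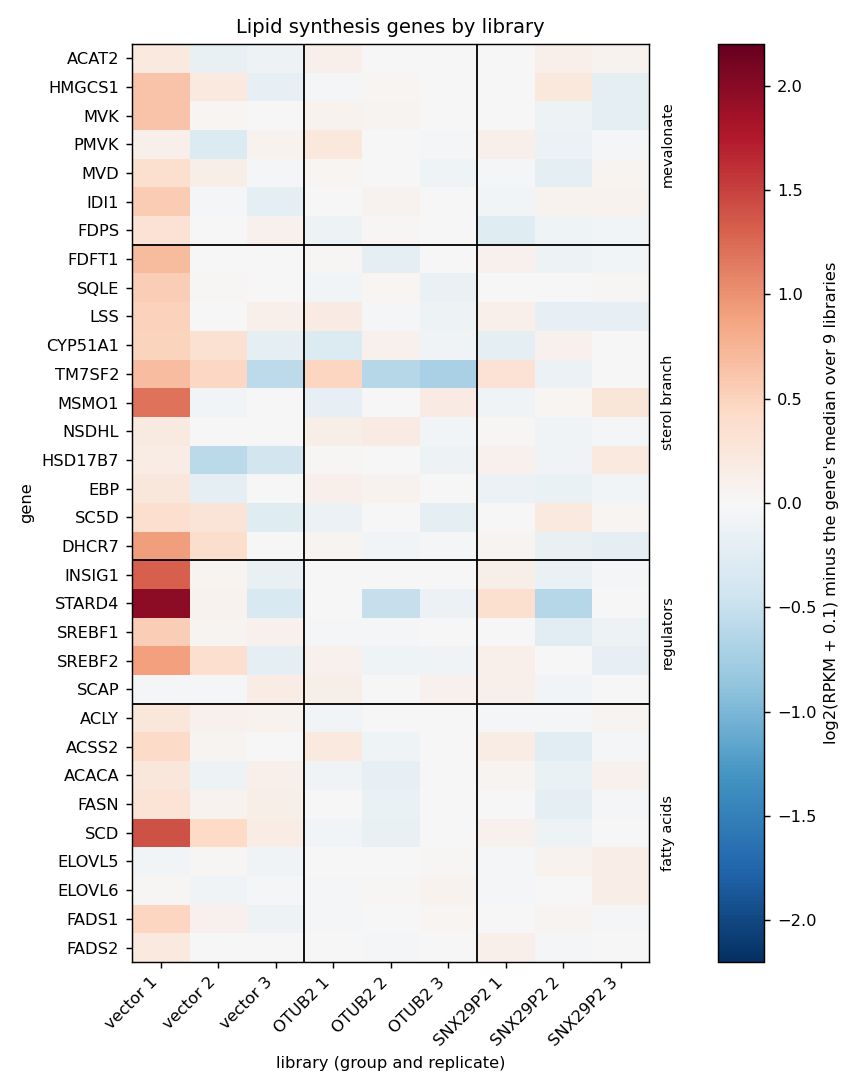
Level of the 32 genes (rows, grouped by role) in the 9 libraries (columns), as log2(RPKM + 0.1) minus the gene's median over the libraries. The column of vector replicate 1 is above the median for most rows, with a median of 0.44, while the medians of the other columns are -0.09 to 0.03.

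In 5 genes vector replicate 1 was over 1.5 times as high as every other library, against 0.532% of all genes tested. This fold was chosen after the values were seen, and MVK, just under it, had a ratio of 1.47. STARD4 was at 4.79, 1.22 and 0.889 RPKM with the vector, at 1.15, 0.779 and 1.05 with OTUB2 and at 1.49, 0.705 and 1.15 with SNX29P2, so that vector replicate 1 was 3.21 times the next highest library. Its log2 fold change was -0.78 (SE 0.520) with OTUB2 and -0.66 (SE 0.520) with SNX29P2, and -0.08 and 0.04 without vector replicate 1. MSMO1, the sterol C4-methyl oxidase, was at 9.78, 4.07 and 4.23 RPKM with the vector and at 3.71 to 5.09 in the 6 overexpression libraries, with log2 fold changes of -0.38 and -0.31, or 0.03 and 0.10 without vector replicate 1. FDFT1, the squalene synthase at which sterols part from other isoprenoids, was at 17.5, 10.6 and 10.7 RPKM with the vector and at 9.18 to 11.4 in the others, with log2 fold changes of -0.29 and -0.26, or -0.06 and -0.02 without vector replicate 1. In each of the 3 genes the remaining vector libraries lay within the range of the overexpression libraries. The other 2 genes, INSIG1 and SCD, are described below with their groups. SCD had at least 7977 reads in every library, FDFT1 2052, INSIG1 1388 and MSMO1 453, and STARD4 had 1161 reads in vector replicate 1.

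**Figure D2:**
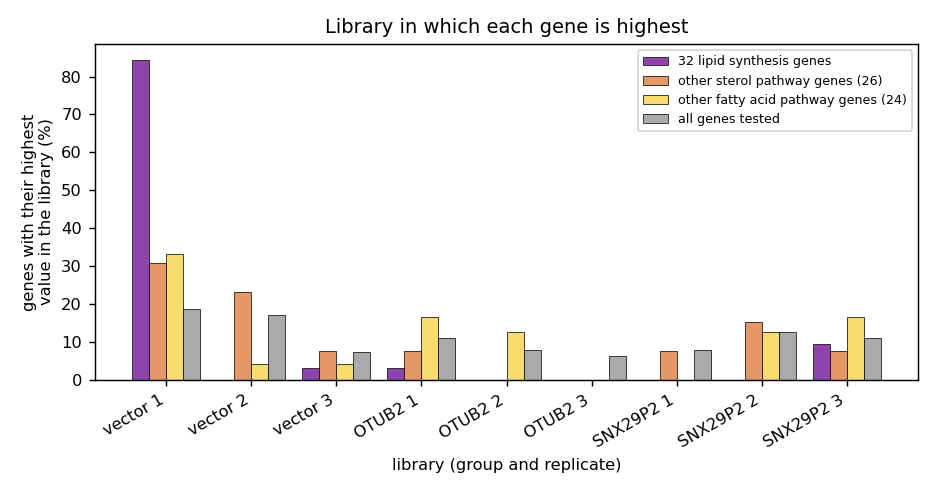
Share of genes (%) whose highest value of the 9 libraries falls in the library named on the x axis, for the 32 lipid synthesis genes, the 26 other sterol and 24 other fatty acid pathway genes tested, and all genes tested. Vector replicate 1 holds 84.4% of the 32 genes and 18.8% of all genes.

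Among the 4 regulators and STARD4, 4 of 5 had a log2 fold change below 0 with OTUB2 and 5 of 5 with SNX29P2, each with a median of -0.38, and the medians were -0.08 and -0.04 without vector replicate 1. SREBF2, the factor that chiefly drives sterol enzymes, differed more within the vector group than between groups. It was at 17.0, 11.7 and 7.86 RPKM with the vector, at 9.67, 8.51 and 8.60 with OTUB2 and at 9.81, 9.04 and 7.94 with SNX29P2. Vector replicate 1 was the highest of the 9 libraries and vector replicate 3 the lowest. The log2 fold change of SREBF2 was -0.38 (SE 0.224) in both comparisons (adjusted p = 0.817 with OTUB2 and 0.703 with SNX29P2). Without vector replicate 1 it was -0.10 in both, and without vector replicate 3 it was -0.65 and -0.66. INSIG1 was at 26.2, 10.98 and 9.35 RPKM with the vector, 10.4, 10.6 and 10.5 with OTUB2, and 11.5, 9.52 and 10.3 with SNX29P2. Apart from vector replicate 1, its 8 libraries spanned a ratio of 1.23. The log2 fold change of INSIG1 was -0.40 (SE 0.307) with OTUB2 and -0.42 (SE 0.307) with SNX29P2 (limma, Benjamini-Hochberg adjusted p = 0.867 and 0.766), and without vector replicate 1 it was 0.06 and 0.04. SREBF1, the factor more closely tied to fatty acid enzymes, was at 11.4, 8.13 and 8.31 RPKM with the vector, 7.65, 7.67 and 7.81 with OTUB2, and 7.90, 6.62 and 7.18 with SNX29P2. Neither overexpression group overlapped the vector in SREBF1, with log2 fold changes of -0.25 (SE 0.126; adjusted p = 0.780) and -0.34 (SE 0.126; adjusted p = 0.551). Without vector replicate 1 the values for SREBF1 were -0.09 and -0.19. SCAP, the carrier of both factors, was nearly level, at 9.33, 9.29 and 10.8 RPKM with the vector, 10.5, 9.60 and 10.3 with OTUB2, and 10.4, 9.21 and 9.59 with SNX29P2. The 95% intervals of the log2 fold changes of SCAP ran from -0.14 to 0.24 with OTUB2 and from -0.20 to 0.18 with SNX29P2.

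**Figure D3:**
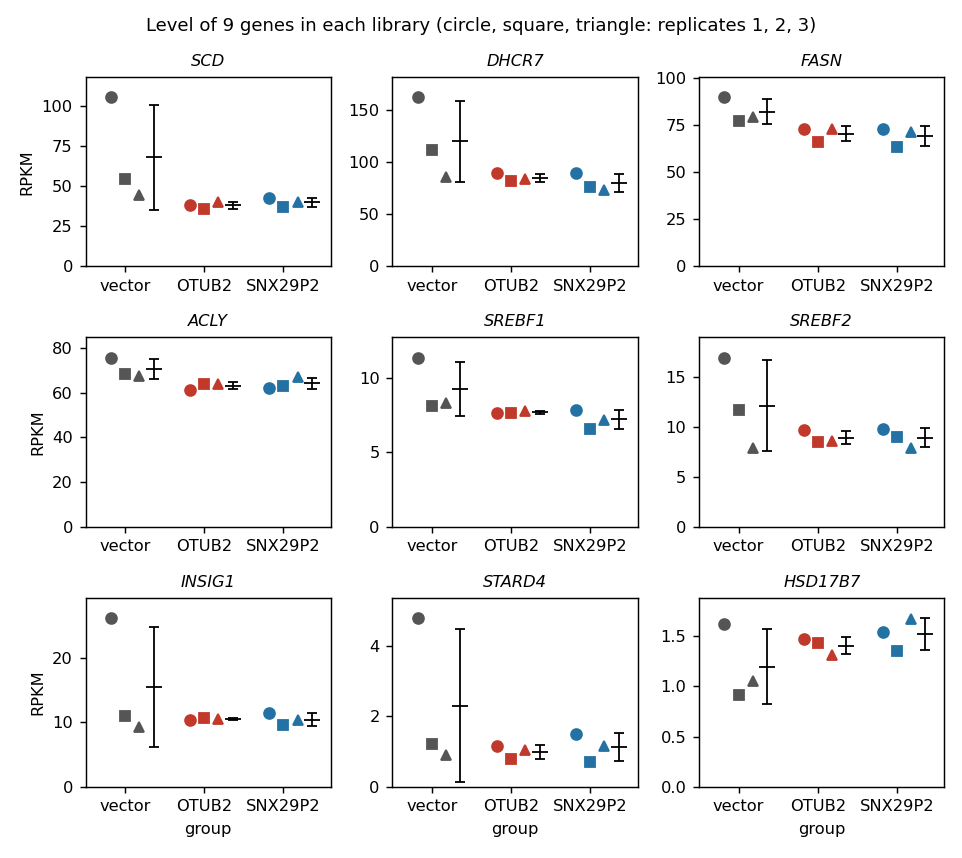
RPKM of 9 genes in each library, with circles, squares and triangles for replicates 1, 2 and 3 and black bars for the group mean and SD (n = 3). Vector replicate 1 is the highest library in every panel but that of HSD17B7, and in SCD, FASN, ACLY and SREBF1 all 3 vector libraries lie above all 6 overexpression libraries.

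Of the 9 fatty acid genes, SCD, FASN and ACLY had vector libraries that all lay above the overexpression libraries. SCD was at 105, 54.2 and 44.6 RPKM with the vector, 38.2, 35.6 and 40.0 with OTUB2, and 42.7, 37.2 and 40.0 with SNX29P2. The log2 fold change of SCD was -0.74 (95% interval -1.31 to -0.18; adjusted p = 0.677) with OTUB2 and -0.67 (-1.23 to -0.10; adjusted p = 0.553) with SNX29P2, and without vector replicate 1 it was -0.37 and -0.30 (adjusted p = 0.592 and 0.416). FASN was at 89.9, 77.2 and 79.7 RPKM with the vector, 72.9, 65.9 and 73.1 with OTUB2, and 73.3, 63.5 and 71.7 with SNX29P2. ACLY was at 75.8, 68.4 and 67.6 RPKM with the vector, 61.3, 64.1 and 64.0 with OTUB2, and 62.3, 63.1 and 67.2 with SNX29P2. Both genes were without overlap between the vector and either overexpression group. The log2 fold changes were -0.22 (SE 0.0817) and -0.24 (SE 0.0817) for FASN, and -0.16 (SE 0.0625) and -0.14 (SE 0.0625) for ACLY, with OTUB2 and SNX29P2 respectively, and adjusted p was 0.534 to 0.707. Without vector replicate 1 they were -0.15 and -0.18 for FASN and -0.11 and -0.08 for ACLY.

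The remaining fatty acid genes differed less. The log2 fold changes of ACACA, the acetyl-CoA carboxylase, ACSS2, which makes acetyl-CoA from acetate, and the desaturases FADS1 and FADS2 ran from -0.20 to -0.05. ELOVL5 and ELOVL6 were the 2 members of this group with values above 0, and the 9 libraries of ELOVL5 ran from 55.1 to 64.6 RPKM. With OTUB2, 7 of the 9 fatty acid genes had a log2 fold change below 0 (median -0.15), and 5 of 9 without vector replicate 1 (median -0.02). With SNX29P2 the counts were 7 of 9 (median -0.14) and 4 of 9 (median 0.00).

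In the mevalonate steps, FDPS had the smallest p of the 32 genes with SNX29P2. It was at 32.6, 26.6 and 28.2 RPKM with the vector, 24.3, 26.6 and 26.3 with OTUB2, and 21.8, 24.7 and 25.2 with SNX29P2. All SNX29P2 libraries of FDPS lay below all vector libraries, while OTUB2 replicate 2 lay just above the lowest vector library. Its log2 fold change was -0.17 (SE 0.0899; adjusted p = 0.782) with OTUB2 and -0.28 (SE 0.0899; adjusted p = 0.519) with SNX29P2, and -0.09 and -0.20 without vector replicate 1. MVK was at 3.72, 2.46 and 2.35 RPKM with the vector, 2.53, 2.495 and 2.38 with OTUB2, and 2.38, 2.21 and 2.03 with SNX29P2, so that vector replicate 1 was highest and the OTUB2 libraries overlapped the other 2 vector libraries. HMGCS1, which makes HMG-CoA, was at 6.93, 5.17 and 3.91 RPKM with the vector and at 3.84 to 5.24 in the 6 overexpression libraries. Of the 7 mevalonate genes 5 were below 0 with OTUB2 (median -0.17) and 5 with SNX29P2 (median -0.21), with medians of 0.03 and -0.01 without vector replicate 1. ACAT2, which condenses acetyl-CoA at the entry of the pathway, and PMVK, the phosphomevalonate kinase, were the 2 genes of the 7 with values above 0 in both comparisons. They had log2 fold changes of 0.05 and 0.10 with OTUB2 and 0.08 and 0.02 with SNX29P2.

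In the sterol branch, 8 of 11 genes had a log2 fold change below 0 with OTUB2 (median -0.24) and 10 of 11 with SNX29P2 (median -0.18), with medians of -0.06 and -0.01 without vector replicate 1. DHCR7 was at 162, 112 and 85.7 RPKM with the vector, 89.4, 82.0 and 83.3 with OTUB2, and 89.4, 76.2 and 73.4 with SNX29P2. Vector replicate 3 lay within the range of both overexpression groups, and the vector group differed within itself by more than the overexpression groups. Its log2 fold change was -0.45 (95% interval -0.87 to -0.02; adjusted p = 0.718) with OTUB2 and -0.54 (-0.96 to -0.12; adjusted p = 0.543) with SNX29P2, and -0.20 and -0.30 without vector replicate 1. SQLE, the squalene epoxidase, was at 15.6 RPKM in vector replicate 1 and at 9.63 to 10.98 in the other 8 libraries, a span of 1.14 times. HSD17B7 went the other way from most genes and was picked out after its values were seen. It was at 1.63, 0.913 and 1.06 RPKM with the vector, 1.47, 1.43 and 1.31 with OTUB2, and 1.54, 1.35 and 1.67 with SNX29P2. Its log2 fold changes were 0.25 and 0.35 (SE 0.197 each; adjusted p = 0.870 and 0.693), and 0.47 and 0.58 without vector replicate 1 (adjusted p = 0.646 and 0.395). TM7SF2 was at 0.722, 0.602 and 0.241 RPKM with the vector, 0.609, 0.230 and 0.213 with OTUB2, and 0.538, 0.367 and 0.410 with SNX29P2, and its groups overlapped.

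Across all genes tested, OTUB2 overexpression was compared with the vector by limma at an adjusted p under 0.05. None of the 32 genes was called, where 0.0181% of all genes were, and 4 of the 32 had an unadjusted p under 0.05 with a lower value, where 3.1% of all genes did: SCD, FASN, ACLY and DHCR7. The count of 4 moved with single libraries. It was 1 without vector replicate 1, 7 without vector replicate 2 and 13 without vector replicate 3. Without OTUB2 replicates 1, 2 and 3 it was 2, 1 and 2. Without vector replicate 3, 887 of all genes passed with a lower value, more than with all libraries. Fewer of all genes passed than with all libraries without vector replicate 1 or 2, or without OTUB2 replicate 1 or 3. Slightly more passed without OTUB2 replicate 2. Without vector replicate 1, 1 of the 32, HSD17B7, passed with a higher value. The groups were without overlap in 4 genes, all lower with OTUB2 (SCD, FASN, ACLY and SREBF1), against 4.91% of all genes lower, and in 0 genes higher, against 5.9% of all genes. A log2 fold change below 0 was found for 24 of 32, with a median of -0.17, against 48% of all genes, with a median of 0.01. Without vector replicate 1 it was found for 18 of 32, with a median of -0.03, against 45.1% of all genes, and 25 of the 32 values were then closer to 0. Without OTUB2 replicate 1, which held the leukocyte reads, the median was -0.20 and none of the 32 was called.

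SNX29P2 overexpression was compared with the same 3 vector libraries, so vector replicate 1 enters both comparisons. None of the 32 genes was called, where 0.0363% of all genes were. An unadjusted p under 0.05 with a lower value was found for 5 of the 32, where 4.09% of all genes had one: FDPS, FASN, DHCR7, SREBF1 and SCD. This count was 3, 9 and 13 without vector replicates 1, 2 and 3, where 629, 613 and 930 of the 16533 genes passed. Without SNX29P2 replicates 1, 2 and 3 it was 6, 2 and 3, where 696, 534 and 444 genes passed. Without vector replicate 1, 2 of the 32, HSD17B7 and ACAT2, passed with a higher value. In that fit 1616 genes passed in either direction, 629 of them with a lower value. The groups were without overlap in 5 genes, all lower with SNX29P2 (FDPS, SREBF1, ACLY, FASN and SCD), against 5.53% of all genes lower, and in 0 genes higher, against 6.13%. A log2 fold change below 0 was found for 27 of 32, with a median of -0.19, against 46.4% of all genes, with a median of 0.01. Without vector replicate 1 it was found for 18 of 32, with a median of -0.01, against 44.6% of all genes, and 24 of the 32 values were then closer to 0.

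**Figure D4:**
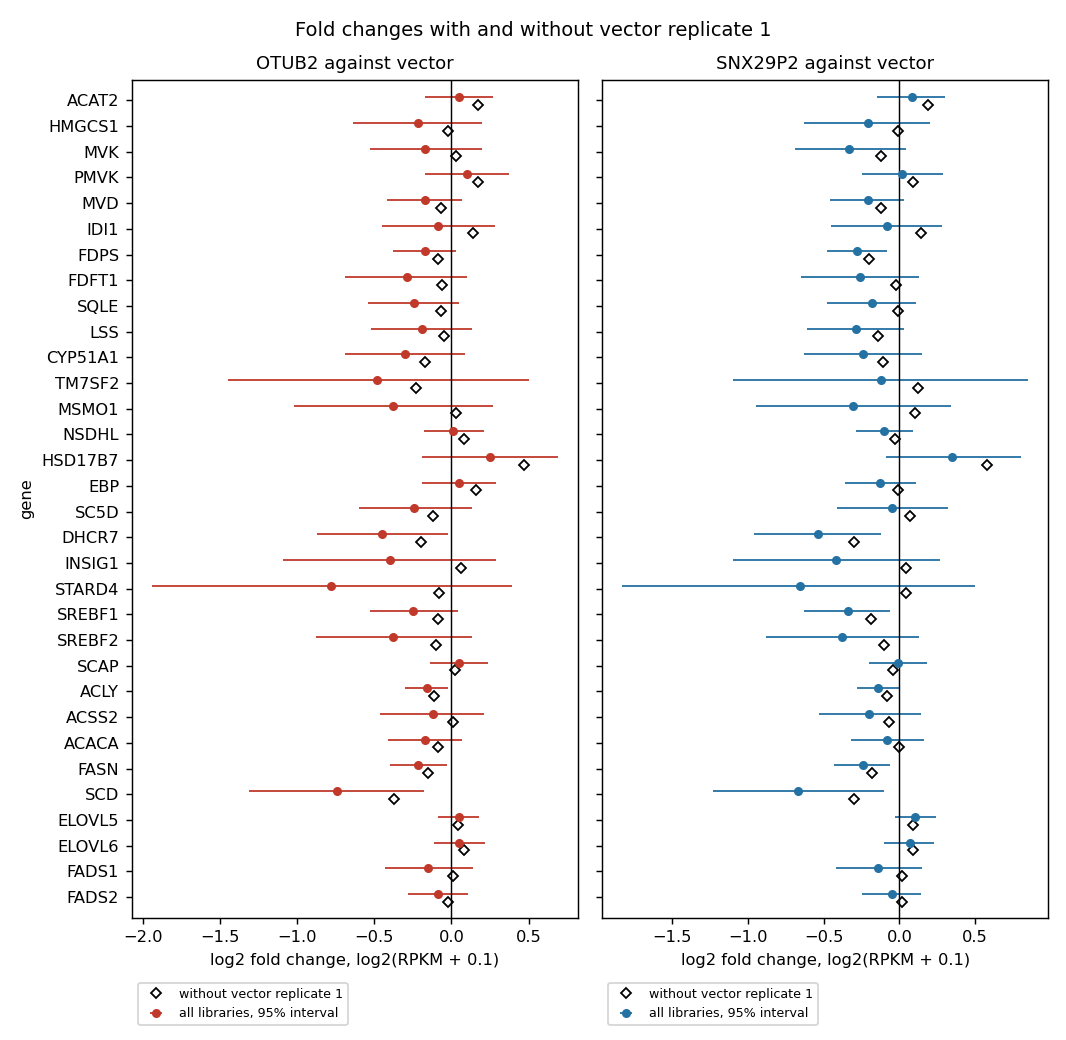
Log2 fold changes of the 32 genes on the log2(RPKM + 0.1) scale against the vector, for OTUB2 (left) and SNX29P2 (right). Filled circles with 95% intervals use all libraries and open diamonds leave out vector replicate 1, which moved the medians from -0.17 to -0.03 and from -0.19 to -0.01.

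The 2 overexpression groups were then compared with each other. The vector libraries set no level in this comparison, but the model takes its spread from all 9 libraries, vector replicate 1 included. None of the 32 genes was called, where 0.0242% of all genes were, and 0 of 32 had an unadjusted p under 0.05, where 2.43% of all genes did. In a fit of these 2 groups only, 1 of 32 had one, higher with OTUB2, where 580 of the 16533 genes tested did. The log2 fold changes ran from -0.35 for TM7SF2 to 0.18 for EBP, a sterol isomerase, with a median of -0.01. EBP was at 9.45, 9.26 and 8.75 RPKM with OTUB2 and at 7.96, 7.89 and 8.42 with SNX29P2, against 10.4, 7.61 and 8.74 with the vector. All OTUB2 libraries of EBP lay above all SNX29P2 libraries, with a 95% interval of -0.06 to 0.41 (adjusted p = 1.00). EBP had the smallest p of the 32 genes in this comparison. The share of all genes without overlap between these 2 groups was not counted, so the separation of EBP cannot be weighed. NSDHL, a sterol dehydrogenase that works beside HSD17B7, was at 19.4, 20.2 and 17.0 RPKM with OTUB2 and 18.01, 16.8 and 17.4 with SNX29P2, against 20.5, 17.8 and 17.7 with the vector. SC5D, the sterol C5-desaturase, was at 2.30, 2.52 and 2.19 RPKM with OTUB2 and 2.51, 2.94 and 2.59 with SNX29P2, against 3.28, 3.10 and 2.08 with the vector. The groups of NSDHL and of SC5D overlapped. FDPS and MVK, given above, differed by 0.11 and 0.16. For SCD the difference was -0.07 (95% interval -0.64 to 0.49), for FASN 0.02 (-0.16 to 0.21) and for DHCR7 0.09 (-0.33 to 0.52). The median 95% interval of the 32 genes reached 0.31 to either side of the log2 difference. That width comes from a spread shared over all 9 libraries, vector replicate 1 included, and is no detection limit for these 2 groups. Small differences between OTUB2 and SNX29P2 can therefore have been missed.

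Other genes of the same pathways were taken from 2 lists. Of 29 sterol pathway genes 27 were matched and 26 tested, and none was called in any comparison. With OTUB2, 16 of the 26 were below 0 (median -0.02), and with SNX29P2 13 of 26 (median -0.01). Of 30 fatty acid pathway genes 24 were tested and none was called, with 11 of 24 below 0 in each comparison with the vector (medians 0.02 and 0.03). Vector replicate 1 was the highest library for 8 of the 26 and 8 of the 24 genes. SLC25A1, which exports the citrate that ACLY splits, was at 34.2, 32.5 and 29.6 RPKM with the vector, 27.3, 26.9 and 26.9 with OTUB2, and 26.5, 24.1 and 22.5 with SNX29P2. Its log2 fold changes were -0.25 and -0.40 (SE 0.0770 each; adjusted p = 0.663 and 0.402), and -0.20 and -0.35 without vector replicate 1. SOAT1, which esterifies cholesterol for storage, was at 14.1, 11.7 and 13.9 RPKM with the vector, 15.5, 15.0 and 15.4 with OTUB2, and 15.1, 15.7 and 16.6 with SNX29P2, above every vector library in all 6. Its log2 fold changes were 0.21 and 0.26 (adjusted p = 0.704 and 0.518). The sterol-sensing nuclear receptor gene NR1H2 had log2 fold changes of -0.19 and -0.21 (adjusted p = 0.704 and 0.519). With OTUB2 the fatty acid list also gave MID1IP1 at -0.23 and ACSL5 at 0.24, and with SNX29P2 ELOVL2 at 0.53 and SCD5 at -0.23 (adjusted p = 0.488 to 0.780). Between OTUB2 and SNX29P2 the smallest p in the lists belonged to NPC2, NUS1 and PDSS2 (log2 differences of 0.19, -0.18 and -0.13) and to AGPAT2, MID1IP1 and SLC25A1 (0.17, -0.17 and 0.15), all with an adjusted p of 1.00.

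G2/M genes, taken as a measure of proliferation, were lowest in vector replicate 2 for 8 of 8 genes, with a median of -0.55 relative to each gene's median, and were at -0.23 in vector replicate 1 and -0.08 to 0.12 in the other 7 libraries. Their part in the lipid gene values was not tested. Several of the 32 genes share exon positions with another gene of the deposited annotation, and whether counting used strand was not given in the sources used here, so reads of both partners cannot be told apart. ACAT2 shared 43.0% of its exon length with SOD2 on the opposite strand and 9.24% with TCP1, at a mean of 94.8 RPKM, and FDPS shared 18.6% with RUSC1-AS1. CYP51A1, the lanosterol demethylase, shared 78.8% with LRRD1 on its own strand. Named pseudogenes are annotated for FDPS (8), CYP51A1 (3), HSD17B7 (2), SCD (1) and FADS2 (1), so reads of these genes can be split or borrowed. The chromosomal positions of the genes the results turn on are, in GRCh38, 100347124 to 100364834 on chromosome 10 for SCD, 71428193 to 71452868 on chromosome 11 for DHCR7, 155297776 to 155310235 on chromosome 7 for INSIG1, 111496033 to 111512590 on chromosome 5 for STARD4 and 41833079 to 41907308 on chromosome 22 for SREBF2, and all 5 are annotated as protein-coding.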

How the data were processed

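Per the file headers, the authors deposited 1 table of RPKM values for 32997 genes in 9 libraries, with exon positions and gene lengths. The submitters' processing notes name GRCh38 as the build. Which aligner, counter, strand setting and annotation release were used was not given in the sources used here. RPKM times length summed to 1000000 in each library, and below 1000 reads 100.0% of values were whole reads within 0.05, so reads were recovered for depth and 1 alternative fit. They need not be independent molecules, and intervals cover the spread between libraries only. Of the gene names 25 had been turned into dates and stayed unnamed.

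The 16533 genes reaching 0.5 RPKM in 3 or more libraries, the 32 among them, were fitted on log2(RPKM + 0.1) with limma 3.58.1 (R 4.3.3), 1 model with a trended variance over all 9 libraries and group as the only term, Benjamini-Hochberg adjusted. Log2 fold changes on this scale are too small for low genes. The programs were tested on simulated data. The alternatives tried were another pseudocount (1 or 0.01), no filter or a stricter one (1 RPKM in 6 libraries), median-of-ratios or quantile scaling, only the compared groups, a replicate block, limma voom on recovered reads, and each library left out.

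The 32 genes and the lists were chosen with earlier results of these data known. Values of every library are given for the 5 genes with the smallest p in each comparison, INSIG1, SREBF1, SREBF2, SCAP and the highest and lowest gene by mean, and for each list of other genes the 3 with the smallest p are named, except for 1 that is not reported here. STARD4, MSMO1, FDFT1, HMGCS1, SQLE and HSD17B7 were added after their values were seen. GENCODE 29 gave gene types, and figures were made with python 3.11.15 and matplotlib 3.10.9.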

Additional observations from a re-analysis of the deposited data

How the results depend on the processing

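The 32 lipid synthesis genes held 0 calls in each of the 3 comparisons under every alternative that was run, with 31 of them tested under the filter of 1 RPKM in 6 libraries. The median log2 fold change of the 32 genes was -0.25 to -0.03 with OTUB2 and -0.28 to -0.01 with SNX29P2 when 1 library was left out at a time, with the values nearest 0 without vector replicate 1, and -0.03 to 0.02 between OTUB2 and SNX29P2. Each library also had a level, the median of the 32 genes relative to each gene's own median. The SD of that level within groups, pooled over the groups, was 0.146. This is a spread of library levels and not of fold changes. It includes vector replicate 1, at 0.44, against -0.09 to 0.03 in the other libraries. Over all genes, the 3 calls with OTUB2 became 7 without a filter and 1 in a fit of the compared groups only, and 1 to 8 with 1 library left out: 1 without vector replicate 1 or any OTUB2 replicate, 2 without vector replicate 2 and 8 without vector replicate 3. The 6 calls with SNX29P2 became 1 under the filter of 1 RPKM in 6 libraries, 10 with limma voom on recovered reads, and 4 to 8 with 1 library left out. The 4 calls between OTUB2 and SNX29P2 became 1 under that filter and were 4 to 5 with 1 library left out. SNX29P2 itself, at most 0.0665 RPKM outside its own group, passes the main filter through that group alone. It does not reach 1 RPKM in 6 libraries and so was not tested under that filter. The cause of the other changes in these counts was not tested.

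The replicate block (the replicate number as a term) gave 4 calls over all genes with OTUB2, 9 with SNX29P2 and 4 between them. It gave 0 calls among the 32 genes. Of the 32, 7 with OTUB2 and 8 with SNX29P2 had an unadjusted p under 0.05 and a lower value, against 4 and 5 without it. Over all genes tested, 933 and 1121 did with the block, against 513 and 676 without it. Between OTUB2 and SNX29P2, 1 of the 32 had an unadjusted p under 0.05 in a fit of the compared groups only, and 0 under each other alternative. The numbers share no stated animal, batch or day. Libraries of the same group correlated at 0.971 to 0.981 on the log2(RPKM + 0.1) scale. After each gene's group mean was subtracted, correlations of same-numbered libraries across genes ran from -0.018 to 0.270. Among the libraries of other groups, 9 of 9 libraries were closest to one of their own number. For vector replicate 1 this was nearly a tie, at 0.051 with OTUB2 replicate 1 and 0.05 with SNX29P2 replicate 3. Its value with SNX29P2 replicate 1 was -0.018. For single genes of the 32, 1437 of 1437 alternative fold changes lay within the gene's own residual SD of the value reported, an SD that vector replicate 1 widens. Measured against limma's moderated SD, 24 lay farther away, 22 of them without vector replicate 1 (11 genes, in both comparisons with the vector) and the others those of SREBF2 without vector replicate 3. Without vector replicate 1, 6 values with OTUB2 and 9 with SNX29P2 turned from below to above 0. The depth limits TM7SF2, with 29 to 105 reads.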
